A study of Mus musculus with 9 samples.

Results

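Runs of neighboring BAP1 peaks are stretches of the mouse genome in which 2 or more listed BAP1 binding sites lie close together. Peaks of 1 list, made by ChIP-Seq in Ba/F3 cells, were merged when their edges lay at most 500 bp apart on the same chromosome, and merged intervals of 2 or more peaks were kept. The members were thus chosen by the positions of the peaks themselves, so that the number of peaks in a run and their spacing are descriptions and were not tested. Of 11415 merged intervals, 1723 were runs (15.1%, 95% interval 14.4 to 15.8), and the other 9692 held a single peak. The runs held 3472 of the 13164 listed peaks (26.4%, 25.6 to 27.1).

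Ba/F3 is a murine B cell precursor line that grows in the presence of IL-3. The list combines 2 of the 9 samples of the series, the wild type (WT) cells precipitated with 52.8 μg of an anti-BAP1 antibody, and a Ba/F3 line with stable expression of murine BAP1 that carries a triple FLAG tag, precipitated with 5 μg of an anti-FLAG M2 antibody. The FLAG line was selected with puromycin, and each immunoprecipitation was sequenced once. Input DNA and the H2AK119ub samples from WT and BAP1-deficient cells were not analysed here. The list gives the position of each peak and no height, score or sample of origin, so that a peak seen with 1 antibody cannot be told from a peak seen with both. All intervals given for shares are 95% Wilson intervals, and those of differences 95% Newcombe intervals, and both cover counting error only, with the depth of the samples unknown.

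BAP1 is a deubiquitinase that removes ubiquitin from histone H2A, reversing the mark H2AK119ub that is placed by Polycomb repressive complex 1. It works in a complex with ASXL proteins, the host cell factor HCFC1, the glycosyltransferase OGT and DNA-binding proteins such as FOXK1, FOXK2 and YY1, since BAP1 itself has no known sequence-specific DNA-binding domain. Most mammalian promoters lie in CpG islands, which are stretches with many unmethylated CpG dinucleotides, and often start transcription at several nearby positions and in both directions. Some peak callers list separate peaks in such a region where they find separate summits of read density. Whether the peaks used here were separated in this way is not given in the sources used.

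The sequences under 4 runs show what the members look like at each kind of place: a promoter, a pair of genes that are read away from each other, an intron and an intergenic region. Each was the longest run of its kind whose listed peaks all lay clear of annotated UTRs, within the chromosomes from which sequence is printed here. The longer promoter runs at Hsp90ab1, Sfpq, Tdrd3 and Raly had peaks on UTRs and are not shown. Several divergent pairs, such as Arhgap21 with Gm13375 and Mbtd1 with Utp18, had longer runs than the pair shown and were passed over for the same reason. All bases are those of the plus strand of the mm9 genome (NCBIM37). Capitals mark matches to the motifs that were searched on both strands. These were CCGGAAG for ETS factors, AANATGGCG for YY1, CGCANGCG for NRF1, ACTACAANT for ZNF143, GGGCGG for SP and KLF factors, CCAAT for NFY, TGACGTCA for CREB and ATF factors, TTCCCGC for E2F, CACGTG for the E-box, TATAAA for the TATA box, TGTGGTT for RUNX, TGANTCA for AP-1 and GAGGAAGT for PU.1. A match is a description of the letters and not a measured binding site, and where matches overlap, as the SP and E2F letters do in the second peak upstream of Chd4, their capitals run together.

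Cul3, the scaffold of a family of ubiquitin ligases, is read from the minus strand of chromosome 1, and its run had 3 peaks over 1140 bp. The 3 peaks lay at +269, -391 and -671 bp from the TSS at 80337055, in this order along the plus strand, and they held 28, 22 and 8 CpG dinucleotides.
Cul3 peak 1, chr1:80336687-80336886: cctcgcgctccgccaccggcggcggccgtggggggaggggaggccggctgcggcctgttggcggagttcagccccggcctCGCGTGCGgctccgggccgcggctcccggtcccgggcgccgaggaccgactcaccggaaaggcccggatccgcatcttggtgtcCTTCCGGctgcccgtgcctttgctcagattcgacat
Cul3 peak 2, chr1:80337347-80337546: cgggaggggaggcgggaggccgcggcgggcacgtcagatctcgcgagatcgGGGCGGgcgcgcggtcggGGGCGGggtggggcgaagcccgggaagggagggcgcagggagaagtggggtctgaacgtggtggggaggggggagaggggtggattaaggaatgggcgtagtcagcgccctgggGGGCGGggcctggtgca
Cul3 peak 3, chr1:80337627-80337826: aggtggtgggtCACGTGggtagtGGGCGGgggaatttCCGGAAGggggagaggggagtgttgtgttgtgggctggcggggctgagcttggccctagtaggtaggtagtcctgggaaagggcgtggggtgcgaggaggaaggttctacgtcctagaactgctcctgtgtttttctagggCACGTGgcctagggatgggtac
The first of these peaks matched ETS and NRF1, the second SP and KLF at 3 places, and the third the E-box at 2 places beside ETS and SP and KLF.

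Rhoa, a small GTPase of the cytoskeleton, and Tcta are read away from each other on chromosome 9, and a run of 2 peaks spanned 867 bp there. The peaks lay at -136 and +531 bp from the Rhoa TSS at 108208536.
Rhoa and Tcta peak 1, chr9:108208301-108208500: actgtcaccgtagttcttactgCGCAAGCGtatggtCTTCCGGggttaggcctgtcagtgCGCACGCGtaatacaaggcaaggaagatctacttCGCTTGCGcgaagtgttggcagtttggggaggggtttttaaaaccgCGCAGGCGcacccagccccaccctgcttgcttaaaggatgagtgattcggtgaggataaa
Rhoa and Tcta peak 2, chr9:108208968-108209167: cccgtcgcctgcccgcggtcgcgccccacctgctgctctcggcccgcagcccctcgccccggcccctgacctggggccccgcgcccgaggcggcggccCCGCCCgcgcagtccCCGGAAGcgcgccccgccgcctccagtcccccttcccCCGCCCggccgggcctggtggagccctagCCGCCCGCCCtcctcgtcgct
The first peak matched NRF1 at 4 places and had a GC content of 54.0%. The second matched SP and KLF at 4 places, NRF1 at none, and had a GC content of 84.0%.

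A run of 2 peaks over 875 bp lay in an intron of 2310014H01Rik on chromosome 17, and 3152 bp from the nearest TSS, that of 5530401N12Rik.
2310014H01Rik intron peak 1, chr17:36006547-36006746: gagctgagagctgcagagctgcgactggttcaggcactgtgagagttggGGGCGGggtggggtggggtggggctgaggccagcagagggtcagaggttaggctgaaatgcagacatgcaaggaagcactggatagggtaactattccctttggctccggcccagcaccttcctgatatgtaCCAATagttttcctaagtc
2310014H01Rik intron peak 2, chr17:36007222-36007421: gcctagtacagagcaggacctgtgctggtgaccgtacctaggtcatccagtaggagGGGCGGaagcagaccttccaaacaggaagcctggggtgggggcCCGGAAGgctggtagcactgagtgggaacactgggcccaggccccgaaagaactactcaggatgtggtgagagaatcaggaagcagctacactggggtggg
These peaks held 3 and 4 CpG dinucleotides, fewer than each of the 3 peaks of Cul3.

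The intergenic example is 1 of the 2 runs of 4 peaks in the genome and lies 6562 bp upstream of Chd4, the ATPase of the NuRD chromatin remodeler. Its 4 peaks, from chr6:125038799-125040076, spread over 1278 bp between Lpar5, whose nearest TSS was 18142 bp away, and Chd4.
Chd4 upstream peak 1, chr6:125038799-125038998: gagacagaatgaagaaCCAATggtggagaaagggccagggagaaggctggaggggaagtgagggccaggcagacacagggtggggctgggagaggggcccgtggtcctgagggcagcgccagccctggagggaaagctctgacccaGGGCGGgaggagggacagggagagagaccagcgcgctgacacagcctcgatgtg
Chd4 upstream peak 2, chr6:125039082-125039281: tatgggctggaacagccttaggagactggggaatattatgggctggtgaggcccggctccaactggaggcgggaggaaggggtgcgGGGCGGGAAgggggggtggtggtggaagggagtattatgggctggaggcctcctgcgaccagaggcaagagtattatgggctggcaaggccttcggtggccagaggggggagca
Chd4 upstream peak 3, chr6:125039619-125039818: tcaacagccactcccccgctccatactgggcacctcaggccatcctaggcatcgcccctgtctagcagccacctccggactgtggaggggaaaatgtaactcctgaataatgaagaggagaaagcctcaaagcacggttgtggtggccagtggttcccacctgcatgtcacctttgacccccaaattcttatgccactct
Chd4 upstream peak 4, chr6:125039877-125040076: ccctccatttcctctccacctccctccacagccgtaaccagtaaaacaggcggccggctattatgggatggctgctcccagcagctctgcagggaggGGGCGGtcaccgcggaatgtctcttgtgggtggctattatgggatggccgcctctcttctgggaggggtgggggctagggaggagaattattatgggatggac
The CpG ratio over 1 kb about the middle of this run, the observed over the expected number of CpG dinucleotides, was 0.289, and the 4 peaks held between 4 and 7 CpG dinucleotides each. The letters ATTATGGG, looked for after this sequence had been read, stood 11 times in the 1278 bp on either strand, 3 times each in the second and the fourth peak and at 0 places in the first and the third. They were found in 32 of 13164 listed peaks (0.243%) and in 164 of 69976 windows of 200 bp about the TSSs of protein-coding genes (0.234%). Just 1 other run had 2 copies, and it was also at Chd4, at chr6:125045892-125046286.

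Runs were short. Of the 1723 runs, 1699 had 2 peaks (98.6%), 22 had 3 and 2 had 4. Their length ranged from 301 to 1427 bp with a median of 412 bp (quartiles 343 and 544), where a single peak is 200 bp wide. Inside the runs there were 1749 pairs of adjacent peaks, whose middles lay a median of 213 bp apart (quartiles 143 and 344). The peaks of 812 pairs overlapped (46.4%), those of 5 touched, and those of 932 were apart.

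The number of pairs per bp fell with distance. There were 494 pairs at 101 to 150 bp, 323 at 151 to 200 bp, 207 at 201 to 250 bp and 169 at 251 to 300 bp. At longer distances 242 pairs lay at 301 to 400 bp, 147 at 401 to 500 bp, 100 at 501 to 600 bp and 67 at 601 to 700 bp. No 2 listed peaks had their middles closer than 101 bp, and 57 pairs lay at 105 bp or less. Since the list does not say from which sample a peak came, pairs of overlapping peaks may be the summits of the 2 samples at 1 site or 2 sites, and these cannot be told apart. At the edge of the rule, 35 pairs had a gap of 451 to 500 bp and were inside runs, and 31 had a gap of 501 to 550 bp and were outside, so that the limit cut through a tail with no break.

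**Figure D1:**
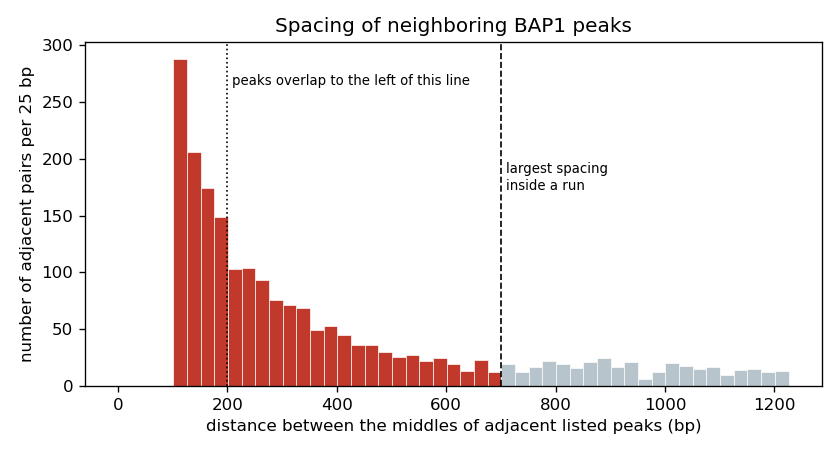
Number of adjacent pairs of listed peaks in bins of 25 bp against the distance between their middles in bp, with pairs inside runs in red and wider pairs in gray. The counts begin at 101 bp and fall from 288 pairs in the first filled bin toward a flat tail that the dashed line, the largest spacing inside a run, crosses without a step.

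Runs lay at promoters more often than single peaks did. The middle of the interval was within 1 kb of an annotated TSS in 1600 of 1723 runs (92.9%, 91.5 to 94.0) and in 6849 of 9692 single-peak intervals (70.7%, 69.8 to 71.6), a difference of 22.2 percentage points (20.6 to 23.6). By kind of place, 1235 runs were at promoters without a divergent pair and 365 at divergent pairs, and 6 were in exons, 37 in introns and 80 in intergenic regions away from TSSs. Intergenic places made up 4.64% of the runs against 17.7% of the single-peak intervals, and introns 2.15% against 10.5%. Read the other way, 17.4% of the intervals at the TSSs of 1 gene were runs (16.5 to 18.4), 25.4% of those at divergent pairs (23.2 to 27.7), and 4.15% of those with no TSS within 1 kb (3.49 to 4.93).

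Runs were also more frequent where several genes start. A divergent pair means that a TSS on the minus strand lies to the left of a TSS of another gene on the plus strand, both within 1 kb of the middle of the interval. Such pairs were found at 21.2% of the runs and 11.1% of the single-peak intervals (difference 10.1 points, 8.13 to 12.2), and TSSs of 2 or more genes at 25.8% against 14.2% (11.6 points, 9.48 to 13.8). Restricted to intervals with a TSS within 1 kb, divergent pairs remained at 22.8% of 1600 runs against 15.7% of 6849 single-peak intervals (7.13 points, 4.96 to 9.41). TSSs spread over more than 100 bp were found at 53.4% and 45.1% of these (8.32 points, 5.60 to 11.0). At promoters of 1 gene alone, the spread of TSSs differed by 4.87 points (38.3% against 33.4%, 1.84 to 7.97).

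Runs were richer in CpG dinucleotides. A CpG ratio of 0.6 or more over 1 kb about the middle was found in 90.3% of the runs (88.8 to 91.6) and 61.0% of the single-peak intervals, a difference of 29.3 points (27.5 to 30.9). Among intervals with a TSS within 1 kb, the shares were 93.6% and 80.2% (13.4 points, 11.8 to 14.9), and the medians of the ratio were 0.814 and 0.752. A GC content of 60% or more was found in 59.8% and 46.6% of the same intervals. Among intervals away from TSSs the difference was wider, with a high CpG ratio in 58 of 123 runs (47.2%, 38.6 to 55.9) and in 417 of 2843 single-peak intervals (14.7%, 13.4 to 16.0). Of these, 7.32% of the runs and 34.4% of the single-peak intervals shared a stretch of 36 identical bases with another interval. The comparison away from TSSs was not repeated without them.

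**Figure D2:**
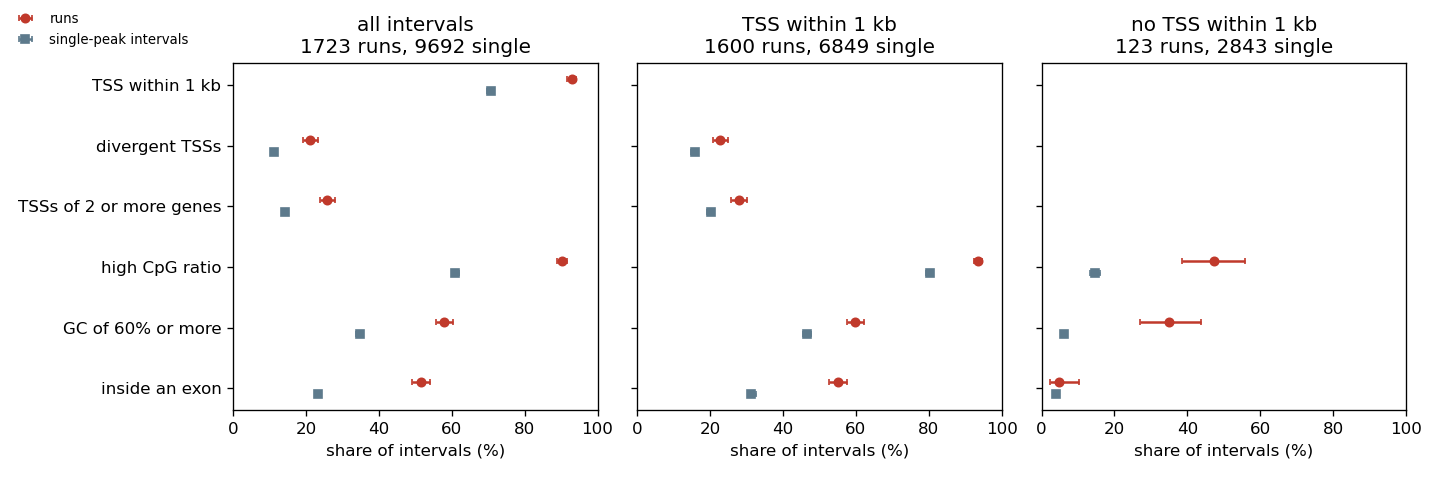
Shares of runs (red circles) and single-peak intervals (blue squares) in percent with each property, for all intervals, for those with a TSS within 1 kb and for those without, with bars for the 95% Wilson intervals, which are narrower than the symbols for most single-peak groups. The red symbols lie to the right of the blue ones for each property in the first and second panels, and in the third, of the 3 properties drawn, the intervals overlap for exons.

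Some of these shares were also taken by the spacing of the peaks. Among runs of 2 peaks, a TSS lay within 1 kb of 93.0% of the 803 with overlapping peaks, 94.7% of the 375 spaced 200 to 300 bp, 92.4% of the 368 spaced 301 to 500 bp and 88.2% of the 153 spaced 501 to 700 bp (82.2 to 92.4). Divergent pairs were at 19.7%, 20.3%, 21.7% and 26.8% of the same groups, and the interval of the last (20.4 to 34.3) overlapped those of the others. TSSs of 2 or more genes were at 23.8% (21.0 to 26.9), 25.9%, 26.4% and 32.0% (25.2 to 39.8). Both shares thus rose with the spacing, with intervals that overlapped. With only runs of 2 peaks that do not overlap, an alternative chosen after seeing the data, the differences from single-peak intervals were 22.0 points for a TSS within 1 kb (19.9 to 23.8), 10.9 for divergent pairs (8.24 to 13.8) and 30.0 for a high CpG ratio (27.7 to 31.9).

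The CpG content of the promoters was compared position by position at the TSSs of 1 gene. In windows of 100 bp, runs had a mean of 10.7 CpG dinucleotides from +100 to +200 bp (SE 0.132, n = 1155), and single-peak promoters 9.35 (SE 0.0623, n = 5471). Upstream, from -300 to -200 bp, the means were 5.94 (SE 0.127) and 4.55 (SE 0.0530). At the outer edge, from -1000 to -900 bp, they were 1.57 (SE 0.0591) and 1.53 (SE 0.0279), a difference smaller than the SE of the first.

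In runs of 2 peaks at 1 gene, the peaks mostly lay on either side of the TSS. Positions were taken from the TSS nearest to the middle of the run, which by itself places that middle near the TSS. Over 1143 such runs the upstream peak had a median position of -97 bp (quartiles -193 and -50) and the downstream peak of +94 bp (17 and 202). Single peaks at 1 gene had a median of -34 bp (quartiles -77 and -1, n = 5471), and 75.6% of them were upstream of the TSS. The peaks lay on either side of the TSS or at it in 797 runs (69.7%), both upstream in 245 (21.4%) and both downstream in 101 (8.84%).

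A peak within 100 bp of the TSS was found in 74.0% of these runs and in 75.1% of the single-peak promoters, and both peaks of a run were that close in 18.8%. The upstream peak was the nearer one in 596 of the 1143 runs (52.1%). Where peaks were apart from each other, 73.9% of 587 runs had them on either side or at the TSS, against 65.3% of 556 with overlapping peaks. These last values follow in part from taking the TSS nearest to the middle of the run. Peaks set wider about that middle fall on either side of the TSS more often by position alone.

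**Figure D3:**
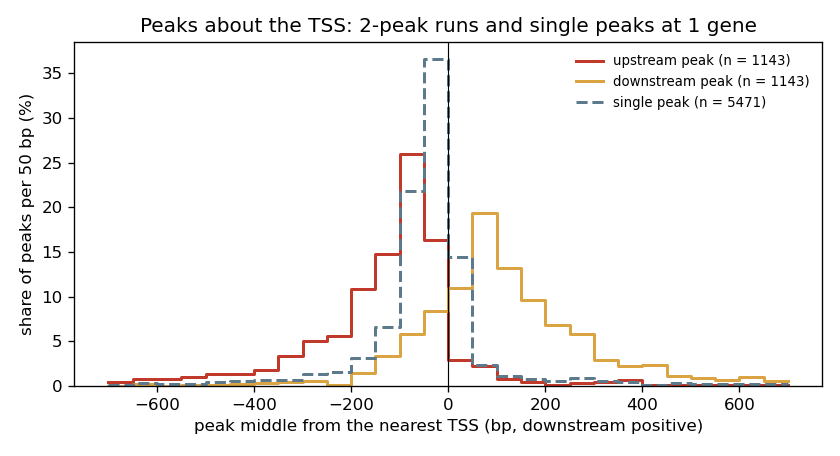
Share of peaks in percent per 50 bp against the distance of the peak middle from the TSS in bp, for the upstream (red) and downstream (yellow) peaks of 1143 runs of 2 peaks at 1 gene and for 5471 single peaks (dashed blue). The single peaks form 1 narrow mode just upstream of the TSS, with a median of -34 bp, and the members of runs form broader modes on either side of it, with medians of -97 and +94 bp.

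At divergent pairs the peaks of a run were compared with the TSSs of both genes. Where there were several, the divergent TSSs that lay closest together were taken. Among 355 runs of 2 peaks at divergent pairs, the distance between the peaks and that between the TSSs showed almost no relation over the runs (Pearson r = 0.0329, Spearman rho = 0.0460, as a description). The merging rule caps the distance between the peaks, while the TSSs could lie further apart. Each peak lay within 100 bp of the TSS on its own side in 70 of the 355 runs (19.7%). By any TSS in place of this closest pair, both peaks had a TSS within 100 bp, and not the same set of TSSs, in 178 of the 355 runs (50.1%). At 1 gene this was so in 208 of 1143 runs (18.2%). A run with 1 annotated TSS cannot meet this condition, while a divergent pair has at least 2. The 2 shares thus differ in part by definition. The median distance between the TSSs was 141 bp at runs (quartiles 71 and 264) and 118 bp at single peaks (62 and 229). The share of intervals that were runs was 21.9% where the TSSs lay at most 100 bp apart (18.8 to 25.4), 26.4% at 100 to 200 bp, 30.3% at 200 to 300 bp and 32.3% at 300 to 500 bp (24.8 to 40.8), and it was 24.1% at 500 to 1000 bp (17.1 to 32.8).

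The 24 runs of 3 or 4 peaks lay almost entirely at promoters. A TSS was within 1 kb of 23 of them, 10 at divergent pairs and 13 at other promoters, and 34 genes had such a run at a TSS. The lengths were 662 to 1427 bp, and the CpG ratio of the 23 was between 0.67 and 1.03, while that of the run upstream of Chd4 was 0.289. Since the rule used the number of peaks, these runs are listed as a description.

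The longest run was at Hsp90ab1, which encodes the constitutive cytosolic chaperone HSP90 beta, on the minus strand of chromosome 17 (chr17:45709426-45710852, 1427 bp). Its 4 peaks lay at -550, -67, +83 and +677 bp from the TSS at 45710202. Counted from the nearest of all 4 annotated TSSs within 1 kb, the outermost downstream peak lay at -21 bp, close to another start of the same gene. At Sfpq, a splicing factor of the nuclear paraspeckles, the run covered chr4:126698388-126699712, with peaks at -81, +617 and +1044 bp from its only TSS in the window. At Tdrd3, whose Tudor domain binds methylated arginine, the peaks lay at -671, -60 and +342 bp (chr14:87815620-87816832).

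Other runs of 3 peaks covered the starts of genes read in opposite directions. At Mbtd1 and Utp18, a chromatin protein of the TIP60 complex and a factor of ribosome assembly, the peaks at chr11:93746403-93747645 lay 12 bp from the Mbtd1 TSS, 27 bp upstream of a Utp18 TSS and 574 bp downstream of a Utp18 TSS. At Arhgap21, a GTPase-activating protein, and the noncoding Gm13375, they lay at +27 bp from Arhgap21 and at -49 and +628 bp from Gm13375 (chr2:20890126-20891409). At Hs2st1, an enzyme of heparan sulfate synthesis, and Sep15, a selenoprotein, they lay at -70 and -57 bp from TSSs of Hs2st1 and +155 bp from Sep15 (chr3:144232816-144233912). At 2210009G21Rik and Mkks, the latter a chaperonin-like protein, all 3 peaks were within 45 bp of a TSS of 2210009G21Rik (chr2:136716838-136717977). In each of these a peak stood within 70 bp of a TSS.

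The run at Raly, an RNA-binding protein, also covered a TSS of the agouti gene, listed as a, and held 11 TSSs within 1 kb, with peaks at -488, -18 and +519 bp from the TSS of a that is nearest to the middle of the run, and at -182, +15 and +206 bp from the Raly TSS nearest to each peak (chr2:154616551-154617757). The remaining runs of 3 peaks were at Hist1h1c, Cep170 and Sdccag8, Eapp and a U1 gene, Zfp362, Agpat1 and Rnf5, Stag1, 1700018M17Rik and Rod1, Rprd2, Ptp4a2, Fbxl19, Hnrnpc, Nubp2 and Spsb3, Fahd1 and Hagh, and Zfp1. Hist1h1c, a linker histone gene of 1560 bp, had its peaks at -52, +390 and +843 bp, so that the last lay well inside the gene. At Zfp362 and Fbxl19 all 3 peaks were upstream of the TSS.

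**Figure D4:**
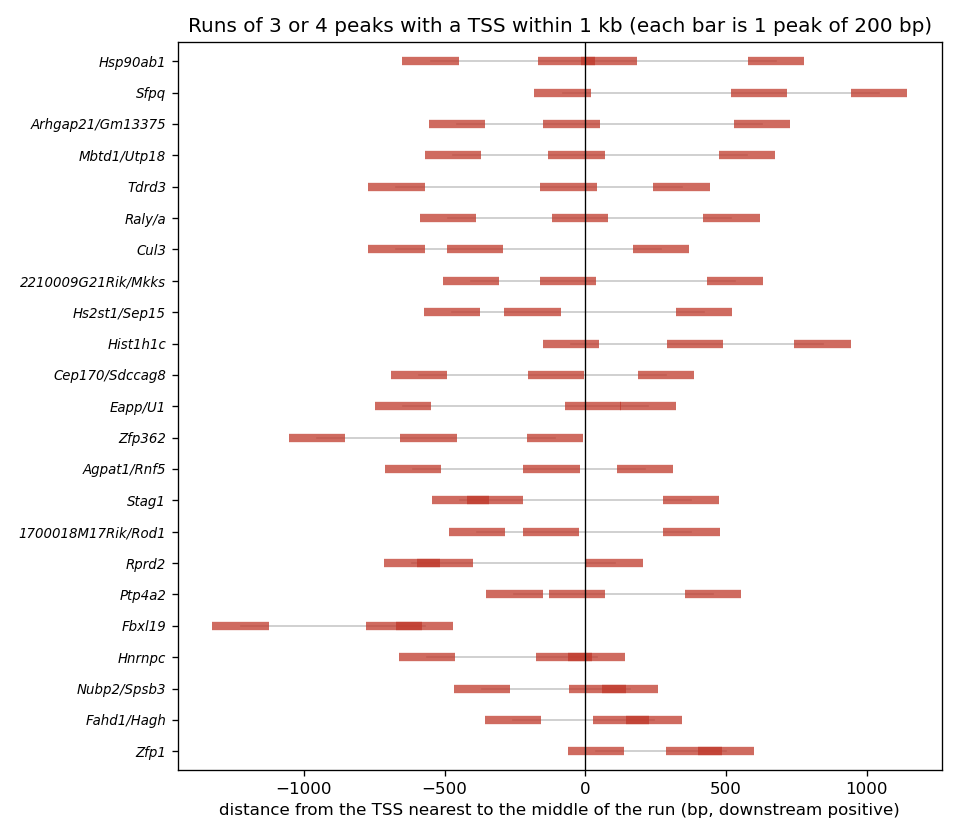
Map of the 23 runs of 3 or 4 peaks with a TSS within 1 kb, each bar a listed peak of 200 bp drawn to scale at its distance in bp from the TSS nearest to the middle of the run. Most runs have peaks on either side of this TSS, in part because it was taken as the one nearest to the middle. Those of Zfp362 and Fbxl19 lie wholly upstream.

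Genes with runs were set against all genes with an interval at a TSS. Of 8846 protein-coding genes with an interval within 1 kb of a TSS, 1857 had a run there (21.0%), which is 8.30% of all 22367 protein-coding genes. Over all 9751 annotated genes with an interval the share was 21.1%. A gene list with a share close to 21.0% is not set apart by its runs, and with so few members per list none was tested. None of the lists held a gene with a run of 3 or more peaks.

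In the BAP1 complex, 11 of 12 genes had an interval and 4 of them a run, a share of 36.4%. The longest was at Mbd6, a methyl-CpG-binding domain protein, over 559 bp. Yy1 followed with 346 bp, at 884 bp from its TSS, then the glycosyltransferase gene Ogt with 327 bp and Mbd5 with 301 bp. The run of Mbd5 is also that of Orc4, since both genes start there. Bap1 itself had a single peak at chr14:32064490-32064689, 86 bp from its TSS, and Asxl1, Asxl2, Foxk1, Foxk2, Kdm1b and Hcfc1 had single peaks as well. Hcfc1 had in addition a run of 2 peaks further upstream, with its middle 1231 bp from the TSS (chrX:71212541-71213315), and a distal run near Yy1 lay 26806 bp from its TSS.

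Among Polycomb genes, 4 of 17 bound genes of PRC1, the complex that ubiquitinates H2A, had a run (23.5%), among them Phc1 over 748 bp, Kdm2b over 404 bp and Pcgf5 over 355 bp. The catalytic genes Rnf2 and Ring1 had single peaks. In PRC2, the H3K27 methyltransferase complex, Rbbp7 (459 bp), Jarid2 (430 bp) and Rbbp4 (368 bp) had runs, 3 of 10 bound genes, and Ezh1, Ezh2, Suz12 and Eed had single peaks. Of 9 bound H2A deubiquitinase genes, Brcc3 (467 bp) and Mysm1 (377 bp) had runs (22.2%).

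Cell cycle genes were near the background. In the replication licensing list, whose genes load and start the replicative helicase, all 25 genes had an interval and 6 a run (24.0%), with the longest at Orc2 (642 bp), Mcm5 (443 bp), Mcm4 (345 bp) and Mcm9 (335 bp). Among cyclins, their kinases and E2F and RB factors, 5 of 26 bound genes had a run (19.2%): the pocket protein gene Rbl2 over 890 bp, E2f1 over 791 bp, Ccne2 over 682 bp, Ccna2 over 511 bp, and Rb1. Translation factors had runs at 8 of 26 bound genes (30.8%), with the longest at Eif3a (558 bp), Eif5a (491 bp), Eif4a1 (406 bp) and Eif6 (347 bp).

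Genes of the lineage and its growth signals were also described by their counts. Of the 22 genes of the B lineage and pre-B receptor list, 3 had an interval at a TSS, the transcription factor genes Tcf3 and Sfpi1 and the surrogate light chain gene Vpreb1, and each was a single peak, where 8846 of all 22367 protein-coding genes had an interval. Of 13 bound genes of the IL-3 receptor and STAT5 list, the anti-apoptotic Bcl2l1 (442 bp) and the kinase gene Pim2 (349 bp) had runs (15.4%). Among signal-responsive transcription factors, 4 of 17 bound genes had runs (23.5%), at Jund over 860 bp, Klf10 over 848 bp, Ier3 over 451 bp and Junb over 336 bp. With 3 to 17 bound genes a list, these counts are too few to be set against the share of runs over all genes.

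Motif letters in the 200 bp of each peak were compared between members of runs and single peaks. Over all peaks, the YY1 letters were in 6.91% of 3472 run peaks and 4.18% of 9692 single peaks (2.73 points, 1.83 to 3.70), and in 3.07% of 69976 windows of 200 bp about protein-coding TSSs. The E2F letters were in 7.98% and 5.30% (2.67 points, 1.70 to 3.72) and in 3.88% of the windows. The SP and KLF letters were in 64.2% and 57.8% (windows 34.4%), NRF1 in 17.0% and 15.4% (7.23%), and ETS in 17.1% and 16.6% (8.26%). The TATA letters were less frequent in runs, with 2.48% against 5.53% (windows 6.60%), and so were NFY with 26.9% against 29.1% (23.7%), AP-1 with 2.68% against 4.22% (4.01%), PU.1 with 1.84% against 2.88% (2.01%), RUNX with 1.67% against 2.54% (3.00%) and CREB and ATF with 2.22% against 3.00% (1.50%). The intervals of the differences included 0 for ETS, for the E-box with 6.60% against 7.20% (4.92%), and for ZNF143 with 1.73% against 1.65% (0.909%). Peaks that overlap share bases and are not independent.

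Since runs lie at TSSs more often, the same comparison was made within peaks of intervals with a TSS within 1 kb, a choice made after the data were seen. YY1 and E2F stayed higher in run peaks, by 1.57 points (7.20% against 5.62%, 0.558 to 2.65) and 1.24 points (7.97% against 6.73%, 0.161 to 2.38). ETS, NRF1 and SP and KLF turned lower in run peaks, with 17.7% against 21.4% for ETS (-3.63 points, -5.25 to -1.97), 17.6% against 20.6% for NRF1 (-2.97 points, -4.58 to -1.32) and 65.6% against 70.1% for SP and KLF (-4.47 points, -6.44 to -2.51). NFY differed by -4.42 points and the E-box by -2.50 points. TATA was in 2.48% against 2.38% (0.101 points, -0.518 to 0.785), and the intervals also included 0 for RUNX, AP-1, PU.1 and ZNF143. Over 1 kb about the middle of the same intervals, a window that holds the whole of most runs, several motifs were more frequent at runs. These were ETS, NRF1, SP and KLF, YY1, E2F (5.82 points, 3.41 to 8.30) and ZNF143 (1.77 points, 0.541 to 3.18). TATA (-2.46 points), AP-1 (-2.19) and RUNX (-1.92) were less frequent, also with intervals clear of 0. ETS was in 40.4% against 33.9% (6.56 points, 3.93 to 9.23), NRF1 was in 39.9% against 31.8% (8.09 points, 5.47 to 10.7), SP and KLF in 94.1% against 89.0% (5.04 points, 3.59 to 6.34) and YY1 in 18.4% against 11.4% (7.03 points, 5.05 to 9.14). The sign for ETS, NRF1 and SP and KLF thus depended on whether single peaks or the wider region were searched.

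Away from TSSs, several motifs were more frequent in the 200 bp peaks of runs, with 46.4% of 248 run peaks against 28.1% of 2843 single peaks for SP and KLF (18.2 points, 11.9 to 24.7), 9.68% against 3.02% for NRF1, 9.68% against 3.20% for the E-box and 8.06% against 1.86% for E2F. The first 3 of these had the opposite sign at TSSs, and E2F the same sign. The TATA letters were in 2.42% against 13.1% (-10.7 points, -12.5 to -7.70). Repeated sequence was unequal here, with a shared stretch of 36 bases in 7.32% of the runs and 34.4% of the single-peak intervals. These motif shares were not taken again without such intervals, so a difference in repeat content cannot be told apart from one between runs and single peaks.

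**Figure D5:**
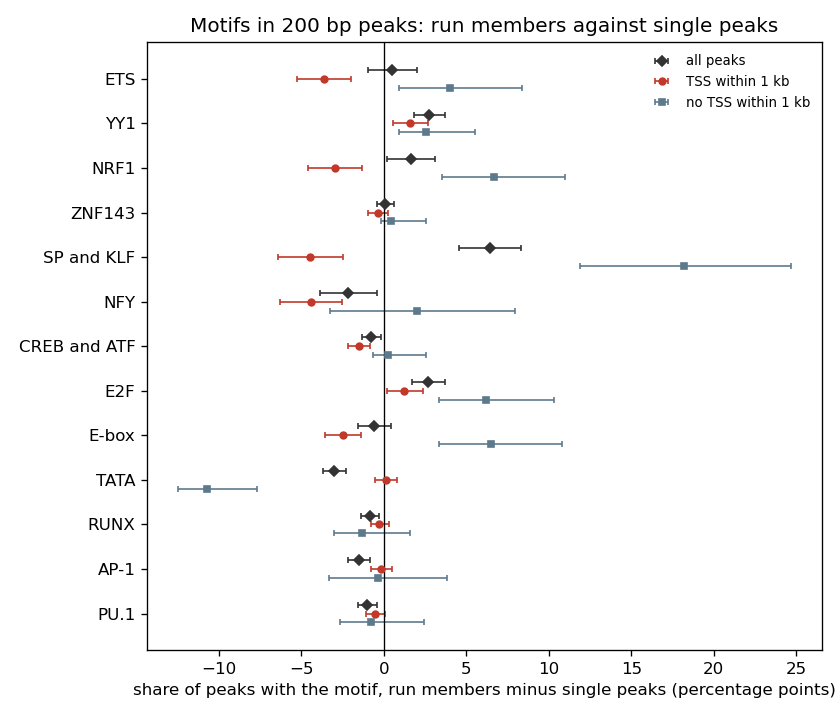
Difference in the share of 200 bp peaks with each motif, members of runs minus single peaks, in percentage points with 95% Newcombe intervals, for all peaks (black), peaks of intervals with a TSS within 1 kb (red) and the others (blue). YY1 and E2F lie to the right of 0 in all 3 groups, and ETS, NRF1, SP and KLF and the E-box lie on opposite sides for promoter and other peaks.

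The 2 members of a promoter run differed in their motifs. In the 1143 runs of 2 peaks at 1 gene, the NFY letters were in 31.1% of the upstream and 20.9% of the downstream peaks, and in 31.3% of 5471 single peaks. NRF1 was in 21.9%, 14.2% and 20.1% in the same order, and the E-box in 9.01%, 4.64% and 8.83%. For these 3 motifs the interval of the difference between upstream and single peaks included 0, and that between downstream and single peaks did not. The same held for ETS (downstream minus single -5.86 points, -8.06 to -3.48), SP and KLF (-4.90), CREB and ATF (-2.14), ZNF143 (-1.23) and RUNX (-0.892). For E2F, TATA, AP-1 and PU.1 both intervals included 0. YY1 was in 6.12% of the upstream and 7.26% of the downstream peaks, against 5.30% of the single peaks, and for it the downstream peaks alone differed from single ones (1.96 points, 0.459 to 3.71). With peaks that are apart, in 587 runs, that difference was 0.832 points (-0.951 to 3.14). In these runs the pattern stayed for NFY, NRF1, the E-box and CREB and ATF. For ETS the upstream peaks were lower than single ones too (-5.98 points, -8.79 to -2.76). The downstream interval included 0 for SP and KLF (-6.16 to 1.72) and ZNF143 (-1.75 to 0.297), and reached 0 for RUNX. For PU.1 the downstream interval was clear of 0 (-2.06 to -0.108).

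The downstream peaks lie further from the TSS than single peaks do, so shares were also set side by side in bins of position, which match positions only roughly. With the middle between 100 bp upstream and the TSS, the letters were in similar shares of run and single peaks, for example NFY in 34.5% of 646 and 33.8% of 3194, and NRF1 in 22.3% and 21.4%, and for each of the 13 motifs the interval included 0. From the TSS to 100 bp downstream, NRF1 was in 14.2% of 408 run peaks and 22.6% of 915 single peaks (-8.41 points, -12.6 to -3.87), and ETS in 18.1% and 24.7% (-6.56 points, -11.1 to -1.72). NFY (-5.80 points), the E-box (-3.60) and CREB and ATF (-2.25) were also lower in run peaks there, with intervals clear of 0. Inside this bin, 787 single peaks lay in the first 50 bp and 128 in the second. For the downstream peaks of runs these counts were 126 and 222, so distance from the TSS still differed there. From 100 to 300 bp downstream, YY1 was in 26 of 426 run peaks (6.10%) and 1 of 191 single peaks (0.524%), a difference of 5.58 points (2.53 to 8.30). NFY (-6.59 points), the E-box (-4.98), AP-1 (-4.35) and PU.1 (-2.15) were lower in the run peaks of that bin, with intervals clear of 0. Upstream, from -300 to -100 bp, YY1 was in 4.18% of 478 run peaks and 1.58% of 695 single peaks (2.60 points, 0.693 to 4.90). SP and KLF were lower in run peaks there (-6.03 points, -11.4 to -0.760). These bins were chosen after the data were seen, and no adjustment was made for the 13 motifs in 4 bins.

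Apart from SP and KLF, the same motif was seldom found in both members of a run. Of 1699 runs of 2 peaks, 44.1% had SP and KLF letters in both, 9.30% NFY, 6.89% ETS and 4.06% NRF1, while 27.6% had ETS and 29.8% NRF1 in at least 1 member. YY1 was in both members of 28 runs and in 1 member of 182. The peaks overlap in 803 of the 1699 runs, so that 1 match in shared bases can count for both members. Of the 1143 runs at 1 gene, ETS was in both members of 72, and of 4 of the 587 with peaks apart. These counts were 537 and 267 for SP and KLF, 101 and 39 for NFY, 51 and 16 for NRF1, and 19 and 2 for YY1.

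The 123 runs without a TSS within 1 kb were a small share of the runs. They lay nearer to TSSs than single peaks of this kind, with 39.0% of them between 1 and 5 kb away against 27.3% of 2843 (11.7 points, 3.40 to 20.7), and 5 of them more than 50 kb away (4.07% against 19.5%). The median distance was 7410 bp against 12725 bp. These distances were not taken again without the intervals that share a stretch of 36 bases, 7.32% of these runs and 34.4% of the single-peak intervals. Among the longer ones were runs in introns of Baz2a (870 bp), the transcription factor gene Nfatc2 (860 bp) and the immediate early gene Fosb (713 bp), and upstream of Spred2 (859 bp) and Fosl2 (819 bp). The run in Baz2a, 1442 bp from the TSS, had a CpG ratio of 0.741, and that in Nfatc2, 26946 bp away, of 0.284.

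Some runs lay in copies of near-identical sequence, where reads of 1 copy can be placed in another. A stretch of 36 identical bases on either strand was shared with another interval by 60 of 1723 runs (3.48%, 2.71 to 4.46) and by 1166 of 9692 single-peak intervals (12.0%, 11.4 to 12.7). Away from TSSs the shares were 9 of 123 (7.32%, 3.90 to 13.3) and 979 of 2843 (34.4%, 32.7 to 36.2). Without the intervals that share such a stretch, the differences between runs and single-peak intervals fell to 15.0 points for a TSS within 1 kb (13.4 to 16.4), 8.97 for divergent pairs (6.94 to 11.1) and 24.1 for a high CpG ratio (22.3 to 25.7). Of the 60 runs, 14 were at genes of small nuclear or nucleolar RNAs, 4 at U1, 3 at U2, 4 at U3 and 3 at U5, and 9 were at clustered histone genes. Another 6 shared stretches with each other, those at the zinc finger genes Zfp119a, Zfp119b and Zfp959 on chromosome 17 and 3 on chromosome 10 near Gm8112, Gm8137 and Gm8158. The peaks of these copies are uncertain, since the handling of reads with several matches is not given in the sources used here.

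Along the genome, the share of intervals that were runs was between 13.0% and 20.0% on each autosome, with the highest on chromosome 8 (20.0%, 17.2 to 23.3). It was lowest on chromosome X, where 23 of 277 intervals were runs (8.30%, 5.60 to 12.2). Chromosome Y had 1 interval, a single peak. Per Mb, chromosome 11 had the most runs (1.38), and chromosome X the fewest (0.138) among those with any.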

How the data were processed

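ChIP-Seq of BAP1 in Ba/F3 cells was available as 1 list of 13164 peaks from 2 samples. The authors mapped paired-end reads to mm9 with Bowtie 1.0.0 and called peaks against input DNA with MACS (1.4.2 per the processing notes of the submitters). The deposited values are a chromosome, start and end of each peak, all 200 bp wide, with no score. The threshold and the rule that combined the samples are not given in the sources used here, and either would change which peaks have neighbors. The order of the list followed the distance to the nearest TSS (Spearman rho 0.852 over 13164 peaks) and was not used as a measure of strength. All columns were those of the pooled list, and 0 columns of single samples were left unmatched.

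Peaks were merged at edge gaps of at most 500 bp and placed by their middle on GENCODE M1 (NCBIM37, equal to mm9; 37273 genes, 22367 protein-coding). The CpG ratio was taken over 1 kb, with 0.6 as the threshold, and 13 motifs were searched on both strands. Shares were compared by 95% Newcombe intervals without a p-value, since there is 1 list and no replicate. The members and the gene lists were chosen with earlier results of these data known. Named genes were those at the 10 runs with the most peaks, up to 4 per list with the longest runs, and Bap1, and 1 gene of a list that this rule names is not reported here. Genes named among distal runs, at repeated sequence or beyond the first 4 of a list were chosen after their values were seen. Alternatives varied the merging distance, the TSS window and annotation, the position of an interval, the CpG measure and the sex chromosomes. The code was tested on simulated data. Python 3.11.15, numpy 2.4.6, pandas 2.3.3, scipy 1.17.1 and pyfaidx 0.9.0.4 were used.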

Additional observations from a re-analysis of the deposited data

How the results depend on the processing

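The 4 differences between runs and single-peak intervals kept their sign, with intervals clear of 0, under each alternative run. They ranged from 15.0 to 23.2 points for a TSS within 1 kb, with the lowest value when intervals with repeated stretches were left out, from 7.13 to 10.9 for divergent TSSs, from 7.69 to 13.0 for TSSs of more than 1 gene and from 13.4 to 30.0 for a high CpG ratio. The lowest values of the last 3 came with intervals at TSSs alone. Both of these alternatives, runs of 2 peaks that do not overlap and the motif alternatives were chosen after seeing the data. The merging distance set the size of the groups. With gaps of at most 100, 250, 1000 and 2000 bp, the share of peaks in runs was 18.1%, 23.0%, 30.8% and 34.1%, and the number of genes with a run of 3 or more peaks at a TSS was 0, 6, 124 and 212 in place of 34.

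Within intervals at TSSs, motif differences reversed for ETS (-3.63 points), NRF1 (-2.97), ZNF143 (-0.391), SP and KLF (-4.47) and TATA (0.101, -0.518 to 0.785), became clear of 0 for the E-box (-2.50), and were no longer clear of 0 for RUNX (-0.272), AP-1 (-0.203) and PU.1 (-0.543). With 1 peak per run, ZNF143 reversed (-0.200), with an interval that included 0 both ways. The cause was not tested. No paired analysis was possible because the data are 1 pooled list of positions with no columns per sample. A stricter peak threshold was not tried, since the list used here gives positions alone, and whether a run holds 2 sites or the summits of both samples at 1 site cannot be told apart.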
